A study of Mus musculus with 26 samples.

Results

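The nuclear genes for the subunits of oxidative phosphorylation were taken as all protein-coding rows of the deposited table whose symbol begins with Ndufa, Ndufb, Ndufc, Ndufs, Ndufv, Sdha to Sdhd, Uqcr, Cox4 to Cox8 or Atp5, with assembly factors left out. This gave 86 members among 54532 gene rows. They were assigned by prefix to complex I (38 members), complex II (4), complex III (8), complex IV (18) and complex V, the ATP synthase (18). Of the 86, 2 had no count in any library, Cox8c and a second row named Atp5o. Another 3 (Cox6a2, Cox7b2 and Cox8b) fell below the filter on low counts, so that 81 entered the main tests.

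The study asked how retinal astrocytes, captured by immunoprecipitation (IP) of their RNA, differ from whole retina and from astrocytes of the optic nerve. The 26 mouse libraries form 4 groups, all from untreated animals and all labelled day 0: retina IP (6 libraries), retina input, the unselected retinal RNA (6), astrocyte IP from the optic nerve head (ONH; 7), and astrocyte IP from the optic nerve proper (ONP; 7), the stretch of nerve that is myelinated. Replicates 1 to 6 of ONH and ONP carry the label batch 1; replicate 7 of each, prepared and sequenced beside the retina, and all retinal libraries carry batch 2. The strain, age, sex, tag and promoter behind the IP, and whether each library came from its own animal, are not given in the sources used here, so p-values measure the spread between libraries, which may be technical.

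Oxidative phosphorylation takes place in the inner mitochondrial membrane. Complex I oxidises NADH and complex II oxidises succinate; both pass electrons through ubiquinone to complex III, which hands them by way of cytochrome c to complex IV, where oxygen is reduced. The proton gradient built by complexes I, III and IV drives complex V. Only complex II is encoded wholly in the nucleus; the other complexes also contain subunits encoded by mitochondrial DNA. Several complex IV subunits exist as a widespread form and a form restricted to certain tissues. Nuclear respiratory factor 1 (NRF1), GA-binding protein (GABP, an ETS-family factor) and YY1 are known regulators of many of these promoters. Astrocytes are commonly described as strongly glycolytic cells that nevertheless contain many mitochondria.

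Promoter windows are shown for 4 members on which the comparisons below turn: Cox6a1 and Uqcr11, which encode short accessory subunits, and Sdha and Atp5b, which encode large catalytic ones. Each run covers 170 bases before to 10 bases after the RefSeq start on the strand of the gene (build GRCm38.p6), 5′ to 3′, and capitals mark matches to the motifs searched.
Cox6a1, chr5:115348949-115349128, minus strand: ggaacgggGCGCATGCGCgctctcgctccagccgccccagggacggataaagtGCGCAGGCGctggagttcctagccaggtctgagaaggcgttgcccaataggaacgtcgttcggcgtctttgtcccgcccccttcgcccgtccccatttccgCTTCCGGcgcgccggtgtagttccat
Uqcr11, chr10:80406812-80406991, minus strand: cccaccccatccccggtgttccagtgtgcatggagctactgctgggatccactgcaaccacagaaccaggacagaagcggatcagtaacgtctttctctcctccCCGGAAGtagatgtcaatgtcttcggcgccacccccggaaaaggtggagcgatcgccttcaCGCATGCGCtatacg
Sdha, chr13:74350231-74350410, minus strand: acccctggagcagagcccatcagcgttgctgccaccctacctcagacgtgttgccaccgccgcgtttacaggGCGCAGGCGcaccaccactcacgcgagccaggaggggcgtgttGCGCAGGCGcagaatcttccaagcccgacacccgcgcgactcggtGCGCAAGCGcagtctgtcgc
Atp5b, chr10:128083137-128083316, plus strand: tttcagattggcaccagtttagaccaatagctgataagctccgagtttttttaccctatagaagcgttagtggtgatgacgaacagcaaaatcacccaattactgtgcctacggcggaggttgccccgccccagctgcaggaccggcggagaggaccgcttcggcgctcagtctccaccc

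The letters searched, on both strands, were GCGCANGCG for NRF1, CCGGAAG for GABP and other ETS factors, and AAGATGGCG for YY1. The full windows reached from 250 bases before to 50 bases after the start, and 67 of the 86 members matched a window. For members the window nearest the GENCODE gene start on the same strand was taken. It lay 1305 bases away for Atp5g2, which held NRF1 letters, 2997 for Cox7a2l and 3643 for Atp5d. The NRF1 letters were in 19 member windows (28.4%), against 6.47% of 27025 comparison windows, the first listed for each gene. The 2 sides were thus picked by different rules. The ETS letters were in 15 (22.4%, against 9.12% of the comparison windows) and the YY1 letters in 6 (8.96%, against 1.49%). At least 1 of the 3 motifs was in 33 member windows (49.3%, against 15.3%). The median GC content was 57% for members and 52.7% for the comparison windows, and both NRF1 and ETS letters are rich in G and C. Cox6a1 had NRF1 matches starting 162 and 117 bases before the start, the first of which reads the same on both strands, and an ETS match 16 bases before it. Sdha had 3 NRF1 matches, starting 98, 55 and 10 bases before the start. Uqcr11 had an ETS match 66 bases and an NRF1 match 5 bases before the start, while the Atp5b window held none of the 3 sets of letters.

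Library totals lay between 11164619 and 27431026 estimated counts. Retina input replicates 1 and 2 stood apart: the 37 mitochondrially encoded genes took 8.16% and 15.2% of their counts, against 2.79% to 4.01% in the other inputs, and they had counts for 16782 and 17082 gene rows, the fewest of all libraries. ONH replicate 7 held a sum of 57001 CPM (counts scaled to the same total in every library) over 12 rod photoreceptor markers, against 107 to 963 in the other ONH libraries. A list of 15 astrocyte markers summed to 7793 to 40201 CPM in retina IP, 4149 to 7321 in input, 7793 to 33430 in ONH and 13106 to 41020 in ONP. Oligodendrocyte markers summed to 28283 CPM or more in every nerve IP library and to at most 171 in retina IP. In bulk libraries such as these, fewer cells of a type and less RNA per cell cannot be told apart.

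Together the 86 genes took a share of all counts that was higher in retina than in the batch 1 nerve libraries. The share was 2.14%, 1.53%, 1.86%, 1.497%, 2.04% and 2.11% in retina IP replicates 1 to 6. In retina input it was 5.49% and 5.27% in replicates 1 and 2 and 2.03% to 2.27% in replicates 3 to 6. ONH replicates 1 to 6 lay between 0.880% and 1.32% and ONP replicates 1 to 6 between 0.800% and 1.04%. The replicate 7 libraries, prepared with the retina, lay at 1.88% (ONH) and 1.71% (ONP), inside the range of retina IP. The retina IP share thus overlapped neither nerve group within batch 1 but overlapped the batch 2 library of each. No test was made on the sums. Many short subunits have near-identical processed pseudogenes in the mouse genome, and how the authors' counting divided reads between such copies was not tested.

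**Figure D1:**
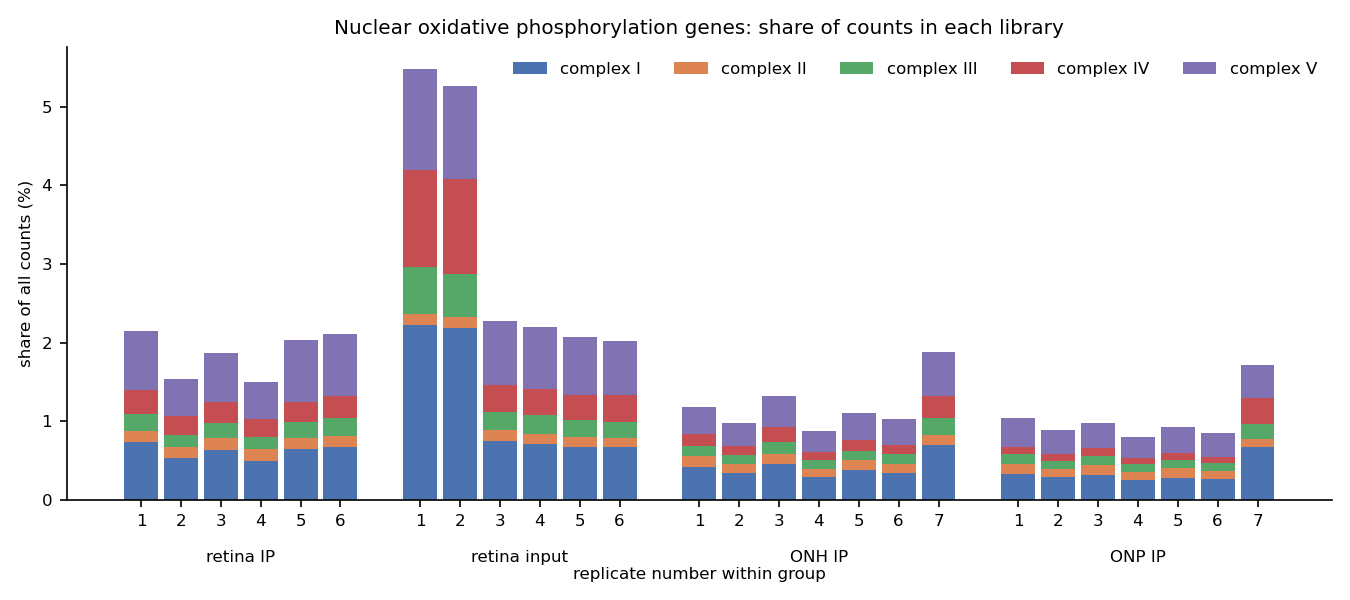
Share of all counts (percent, vertical axis) taken by the nuclear oxidative phosphorylation genes in each of the 26 libraries (horizontal axis, replicate number within group), stacked by complex. Retina input replicates 1 and 2 (5.49% and 5.27%) stand above all other libraries, and replicate 7 of ONH (1.88%) and ONP (1.71%) stands above the other libraries of its group.

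The complexes did not contribute alike to these differences. By the ratio of the highest to the lowest library, complex II, succinate dehydrogenase, varied least and complex IV, cytochrome c oxidase, varied most. Complex II took 0.131% to 0.156% of counts in retina IP, 0.123% to 0.136% in input, 0.105% to 0.131% in ONH and 0.0990% to 0.126% in ONP. The share of complex IV was 0.226% to 0.297% in retina IP, 1.21% and 1.24% in the input pair that stood apart, 0.319% to 0.339% in the other inputs, 0.104% to 0.187% in batch 1 ONH and 0.0820% to 0.0970% in batch 1 ONP. Replicate 7 held 0.291% (ONH) and 0.326% (ONP) for complex IV. Complex I, the largest by subunits, took 0.501% to 0.734% in retina IP, 2.19% and 2.23% in the input pair that stood apart, 0.667% to 0.749% in the other inputs, 0.290% to 0.458% in batch 1 ONH and 0.258% to 0.326% in batch 1 ONP. Complex V took 0.472% to 0.791% in retina IP, 0.693% to 1.29% in input, 0.274% to 0.553% in ONH and 0.260% to 0.422% in ONP. Its retina IP and ONH ranges overlapped through ONH replicate 7, at 0.553%. Complex III took 0.153% to 0.224% in retina IP, 0.206% to 0.597% in input, 0.108% to 0.209% in ONH and 0.0980% to 0.187% in ONP.

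The most abundant members encode large catalytic or structural subunits. Atp5b, the catalytic beta subunit of the ATP synthase, was first with a mean of 1521 CPM over the 26 libraries and 8.58% of all member counts. Atp5a1, the alpha subunit, followed with 959 CPM. Cox4i1, the widespread form of complex IV subunit 4, had 737 CPM, Uqcrc1, a core protein of complex III, 617 CPM, and Sdha, the flavoprotein of complex II, 614 CPM. In complex I the highest was Ndufv1, a core subunit that carries the NADH site, with 323 CPM. The lowest in each complex were Ndufa4l2 (2.61 CPM), Sdhc, a membrane anchor (107), Uqcr10 (133), Cox8c (no count) and, among complex V members with counts, Atp5s (29.1). Per kilobase of coding sequence the order differed: in retina IP, Cox8a stood at 1539 CPM per kb, Cox4i1 at 1292, Uqcr11, a small complex III subunit, at 1284, Atp5b at 1283, Atp5a1 at 818, Uqcrc1 at 449, Sdha at 360 and Ndufv1 at 291.

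For Atp5b the retina IP libraries held 2299, 1441, 1862, 1306, 2682 and 2626 CPM. Inputs held 1327, 1033, 2651, 2638, 2334 and 2219 CPM. ONH libraries held 913, 894, 1151, 852, 1002, 1088 and, in replicate 7, 1576 CPM, and ONP libraries 1429, 1056, 1145, 935, 1148, 1137 and, in replicate 7, 806 CPM. Inputs 3 to 6 and retina IP overlapped, while the 2 inputs that stood apart were the lowest of the inputs. Its ONP replicate 7 value was the lowest of its group.

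The first comparison asked which members were enriched or depleted in retinal astrocyte RNA relative to whole retina. No member was called at an adjusted p under 0.05 by edgeR's quasi-likelihood test, as for all 15181 genes tested (0.0% called in either direction). At an unadjusted p under 0.05, 55 of 81 members were lower in IP and 0 higher, against 1585 lower and 1771 higher genes overall. Estimates were below 0 for 74 of 81 members, with a median log2 fold change of -1.30, against 0.02 over all genes tested. DESeq2 called 47 of 84 members lower (56.0%, against 4.13% of all 27961 rows with a count). That share includes rows of low count that the edgeR filter removes, so it is not comparable with the edgeR shares. An edgeR fit of all 26 libraries called 61 of 83 lower (73.5%, against 8.46%). Without input replicates 1 and 2 the median was -0.21, with 60 of 81 estimates below 0 and again no member called. The IP libraries were not alike. The members took a mean 2.10% of counts in IP replicates 1, 5 and 6 and 1.63% in replicates 2 to 4. The mean was 2.14% in inputs 3 to 6. Ganglion cell markers summed to 5144 to 5753 CPM, 959 to 2380 CPM and 4206 to 5185 CPM in the same order. Astrocyte markers summed to 7793 to 10523 CPM, 25927 to 40201 CPM and 4777 to 7321 CPM. The part of this split in the comparison was not tested.

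The 5 members with the smallest p were all short subunits or small accessory proteins. Cox6c, a complex IV subunit, held 248, 201, 241, 207, 231 and 252 CPM in retina IP and 1480.2, 1368, 398, 382, 314 and 352 CPM in input. The groups did not overlap, and the 2 inputs that stood apart were several-fold above the other 4. Its log2 fold change was -1.89 (SE 0.51, adjusted p = 0.068, edgeR). Ndufb2, an accessory subunit of complex I, had a log2 fold change of -1.28 (SE 0.33, adjusted p = 0.067, edgeR). Atp5k (-2.19), Atp5mpl (-2.13), both small subunits of the ATP synthase, and Uqcrh (-1.84), the hinge protein of complex III, had adjusted p-values of 0.068 to 0.069. Core subunits, and Cox5a of complex IV, differed among themselves. Sdha held 658 to 763 CPM in retina IP, 318 and 109 CPM in inputs 1 and 2, and 660 to 747 CPM in inputs 3 to 6. Uqcrc1 had means of 647 CPM in IP and 623 CPM in input, and Ndufv1 of 405 and 401 CPM. Ndufv2, another core subunit of complex I, had means of 334 CPM in IP and 607 CPM in input, with 994 and 1144 CPM in inputs 1 and 2. Ndufs7 had means of 221 and 354 CPM, Cox5a, of complex IV, of 131 and 275 CPM, and Sdhb, the iron-sulfur subunit of complex II, of 297 and 395 CPM.

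By complex, the median log2 fold change of IP against input was -1.26 for complex I, -0.09 for complex II, -1.64 for complex III, -1.48 for complex IV and -1.16 for complex V. Of the mitochondrially encoded subunits, 13 of 13 estimates were below 0, with a median of -2.74, and -1.504 without inputs 1 and 2; none was called. The cytosolic ribosomal proteins listed for comparison had a median of -1.60, with 15 of 15 below 0 and none called. The tricarboxylic acid cycle genes, which supply NADH and succinate, had a median of -0.04 and the glycolytic genes one of 0.20, none of them called.

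**Figure D2:**
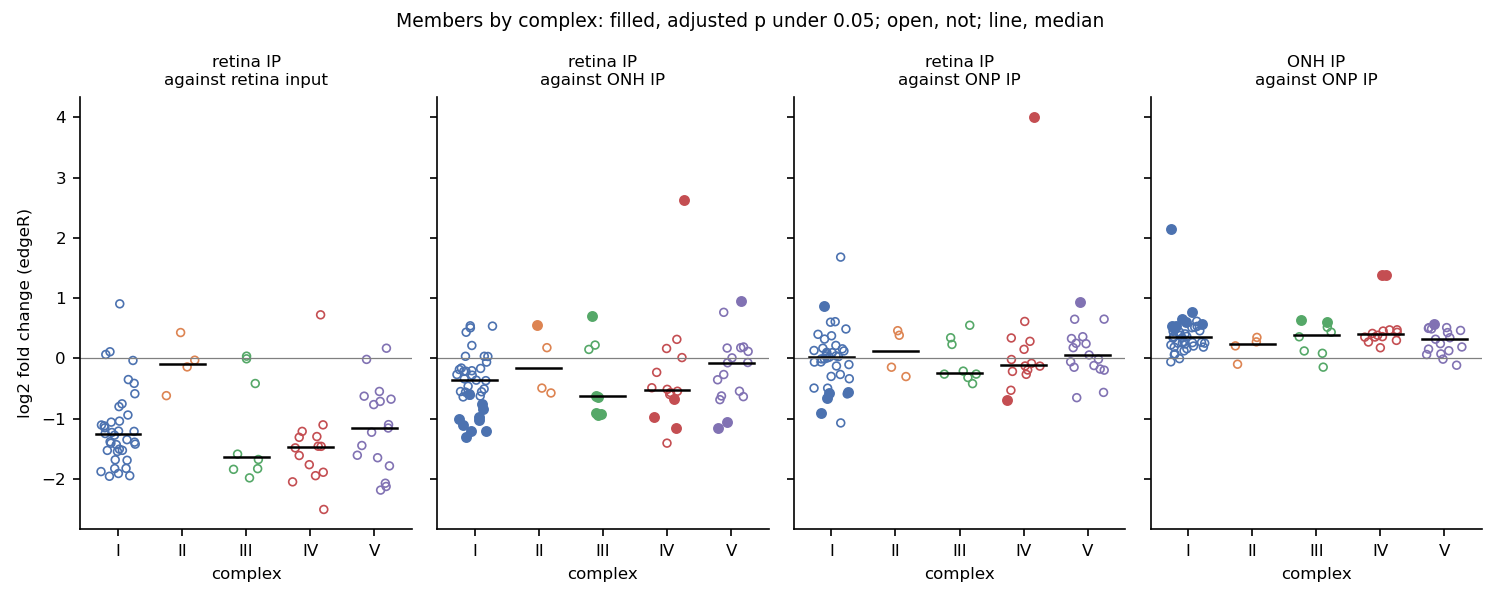
Log2 fold change of each of the 81 tested members (vertical axis, edgeR) by complex (horizontal axis) in the 4 comparisons; filled points had an adjusted p under 0.05 and lines mark medians. In retina IP against input 74 of 81 points lie below 0 and none is filled, and in ONH against ONP 13 are filled, all above 0.

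The members split by the length of their coding sequence. With a boundary at 600 bases, chosen after the values were seen, 60 of the tested members were shorter and 21 were longer. In IP against input the short members had a median log2 fold change of -1.47 and the long ones of -0.42. Across the 81 members, Spearman's correlation between log2 fold change and coding length was 0.81, and 0.56 without inputs 1 and 2. Over all 13369 protein-coding genes tested it was 0.34, and 0.08 without those inputs. Genes share the same libraries and are not independent, so these values are descriptions.

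The libraries that stood apart within a group followed the same division. Retina inputs 1 and 2 were above inputs 3 to 6, as a log2 ratio of mean CPM plus 1, by a median of 1.92 for 59 short members and 0.65 for 21 long ones. ONH replicate 7 was above ONH replicates 1 to 6 by a median of 1.39 for 57 short members and 0.36 for 21 long ones. ONP replicate 7 was above ONP replicates 1 to 6 by 2.06 for 56 short members and 0.06 for 21 long ones. Over all protein-coding genes with a mean of at least 5 CPM, the medians for short and long genes were 0.28 and -0.03 in ONH. They were 0.69 and -0.12 in ONP and 1.06 and -0.88 in the retina inputs. The division by length was thus present in genes at large in ONP and the retina inputs. In ONH the short and long medians lay closer together, without a rank correlation over all genes. The Spearman correlation with coding length was -0.85 for members and 0.00 for all protein-coding genes in ONH, -0.90 and -0.30 in ONP, and -0.83 and -0.47 in the retina inputs. What sets these libraries apart was not tested.

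**Figure D3:**
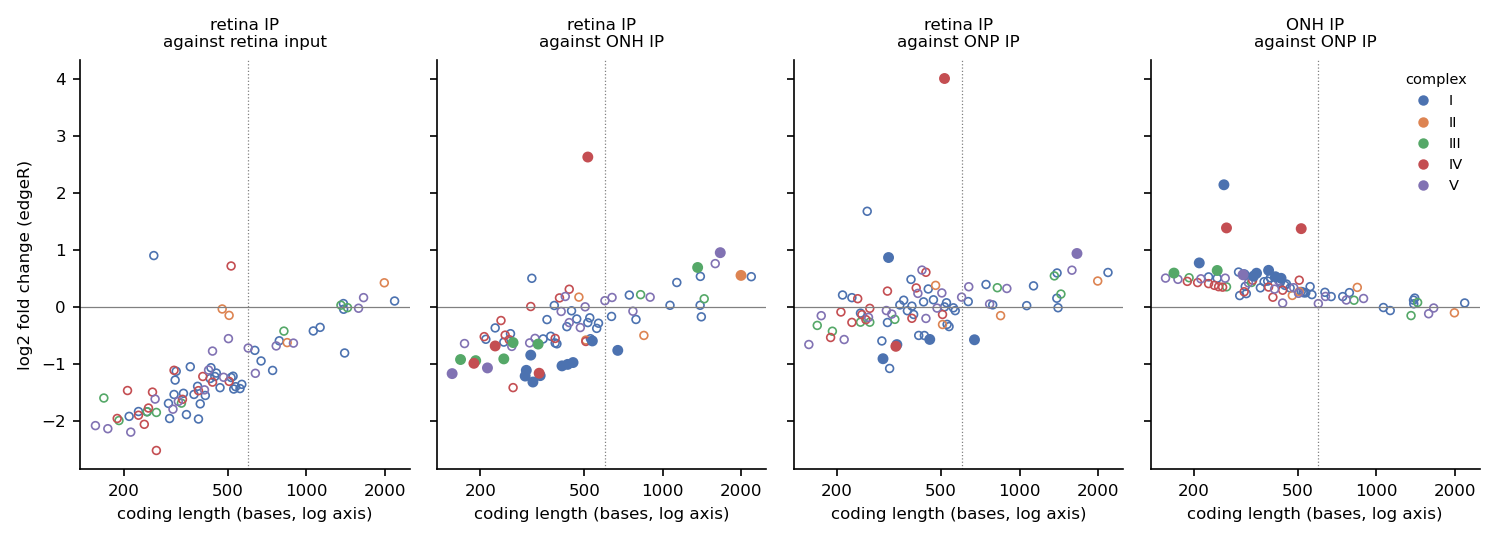
Log2 fold change of each tested member (vertical axis, edgeR) against its longest annotated coding sequence (bases, log axis), coloured by complex, with filled points at an adjusted p under 0.05 and a dotted line at 600 bases. Members under 600 bases lie lower than longer ones in retina IP against input (medians -1.47 and -0.42) and higher in ONH against ONP (medians 0.43 and 0.12).

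The comparison of retinal with optic nerve head astrocyte RNA depended on the treatment of the batches. With a batch term, which only replicate 7 of ONH and ONP can inform, edgeR called 4 of 81 members higher in retina (4.94%, against 12.7% of all genes) and 20 lower (24.7%, against 21.1%), with a median log2 fold change of -0.37 against -0.13 over all genes. Without a batch term it called 32 of 81 higher (39.5%, against 23.7%) and 1 lower, with a median of 0.67. Within batch 2, where a lone ONH library is assumed to vary like the retina libraries, the median was 0.02, against 0.10 over all genes. A fit of only these groups with the batch term called none, against 437 genes higher and 1632 lower of 15754. At an unadjusted p under 0.05, 1 member was higher and 2 lower, against 1560 and 2709 genes. Without ONP replicate 7, 1 member was called higher and 2 lower, against 722 and 2262 of 16264 genes, and without ONH replicate 7, 5 higher and 30 lower, against 1640 and 2478 of 16145 genes. The batch term rests on both of these replicate 7 libraries. Rod markers summed to 57001 CPM in ONH replicate 7 and 735 CPM in ONP replicate 7, and their part in the result was not tested.

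Cox4i2 (chr2:152754173-152765037, plus strand, GRCm38, GENCODE M21), the restricted form of complex IV subunit 4 described in lung and in oxygen-sensing cells, had the highest log2 fold change of the called members. It held 33.3, 107, 61.7, 76.5, 29.5 and 42.6 CPM in retina IP and 11.5, 5.41, 17.8, 4.66, 14.7, 7.27 and, in replicate 7, 9.72 CPM in ONH. Every retina IP library was above every ONH library, in both batches. The log2 fold change was 2.63 (SE 0.64, adjusted p = 0.0038, edgeR) and stayed between 2.38 and 2.81 over 29 alternatives, 27 of which called it.

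Atp5a1 was higher in retina by 0.95 (SE 0.30, adjusted p = 0.018, edgeR): retina IP held 1537, 833, 1213, 974, 1830.4 and 1751 CPM and ONH 614 to 720 CPM in batch 1 and 839 in replicate 7. Only retina replicate 2 lay below that replicate 7 value. The values of 1537, 1830.4 and 1751 CPM were in retina IP replicates 1, 5 and 6, where ganglion cell markers summed to 5144 to 5753 CPM. In replicates 2 to 4 that sum was 959 to 2380 CPM, and its part in the Atp5a1 difference was not tested. Uqcrc2, a core protein of complex III, was higher by 0.70 (SE 0.23, adjusted p = 0.023, edgeR), with 144 to 276 CPM in retina IP and 127 to 154 in ONH. Sdha was higher by 0.56 (SE 0.18, adjusted p = 0.024, edgeR), with 658 to 763 CPM against 526 to 636, and the groups did not overlap. These 3 long members and Cox4i2 kept a log2 fold change above 0 under each of the 29 alternatives, and each passed the threshold in 24 or more of them.

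Most members called lower in retina had a higher mean CPM there; the exceptions were Ndufs7 (221 CPM in retina IP, 265 in ONH) and Ndufb9 (140.4 and 143). Ndufs5, a complex I subunit, held 47.1 to 121 CPM in retina IP, 16.1 to 73.5 CPM in batch 1 ONH and 158 CPM in ONH replicate 7. Its log2 fold change was -1.31 (SE 0.49, adjusted p = 0.046, edgeR) with the batch term and 0.29 without it. Ndufa7, another complex I subunit, held 141 to 188 CPM in retina IP, 56.2 to 112 CPM in batch 1 ONH and 257 CPM in replicate 7, with a log2 fold change of -1.20 (SE 0.23, adjusted p = 7e-04, edgeR). Ndufa2 (-1.21), Atp5e, the epsilon subunit of the ATP synthase (-1.16), and Cox6a1, the widespread form of complex IV subunit 6a (-1.16), completed the 5 largest, with adjusted p-values of 0.0072, 0.013 and 0.0024 by edgeR. All 5 turned sign without the batch term. Called lower were 10 members of complex I, 5 of III, 3 of IV and 2 of V, and 19 of the 20 had a coding sequence under 600 bases.

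**Figure D4:**
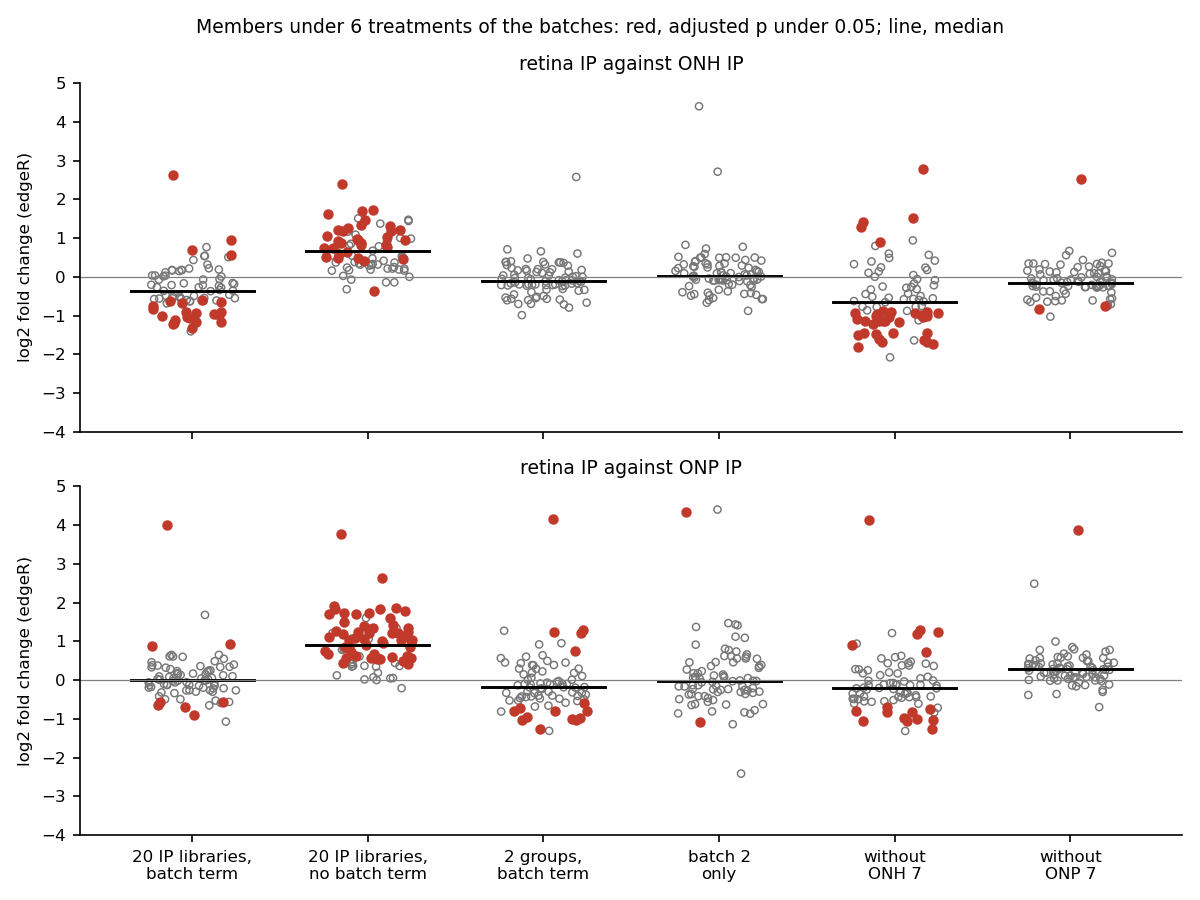
Log2 fold change of each tested member (vertical axis, edgeR) in retina IP against ONH IP (top) and ONP IP (bottom) under 6 treatments of the batches (horizontal axis); red points had an adjusted p under 0.05 and lines mark medians. The ONH medians lie at -0.37 with the batch term and 0.67 without it; Cox8b, at -8.18 in the batch 2 fit against ONH, lies outside the axis.

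Retina against the nerve proper uses the same retina libraries and gave fewer calls. EdgeR with the batch term called 3 of 81 members higher in retina (3.70%, against 12.9% of all genes) and 5 lower (6.17%, against 19.9%), with a median log2 fold change of -0.01. Without a batch term 54 of 81 were called higher (66.7%, against 25.8%) and 0 lower, with a median of 0.92. Within batch 2, with a lone ONP library, the median was -0.02, against 0.23 over all genes. Without ONP replicate 7 it was 0.28, with 1 higher and 0 lower, against 567 and 1588 of 16264 genes. Without ONH replicate 7, 6 were called higher and 11 lower, against 1889 and 2800 of 16145 genes. Without retina IP replicate 2, 6 were higher and 3 lower, against 2185 and 3380 of 16513 genes. Without retina IP replicate 4 they were 5 and 1, against 2436 and 3305 of 16661 genes. The number lower was also 1 without ONP replicate 4 (2971 of 16345 genes). It was 2 without retina IP replicate 5 (2954 of 16610) or 6 (2933 of 16593), and 3 to 5 without each other library.

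Cox4i2 led again: ONP libraries held 1.75, 3.74, 3.56, 2.35, 6.63, 5.05 and, in replicate 7, 3.06 CPM, all below the 29.5 CPM of the lowest retina IP library. Its log2 fold change was 4.01 (SE 0.70, adjusted p = 2e-04, edgeR), and all 29 alternatives called it, at 3.76 to 4.32. Atp5a1 was higher by 0.94 (SE 0.31, adjusted p = 0.024, edgeR) with 517 to 828 CPM in ONP, below every retina IP library. Ndufb2 was higher by 0.87 (SE 0.32, adjusted p = 0.044, edgeR) and held 20.1 to 46.2 CPM in retina IP, 5.94 to 8.21 CPM in batch 1 ONP and 16.9 CPM in replicate 7. Ndufb2 was called in 15 of 29 alternatives. The members called lower were Ndufa3 (-0.90), Cox6a1 (-0.69), Ndufa7 (-0.66), Ndufs7 (-0.57), a core subunit that carries an iron-sulfur cluster, and Ndufb11 (-0.56). All but Ndufs7 turned sign without the batch term. Of 29 alternatives, 26 called Ndufa3, 22 Ndufs7, 19 Ndufa7, 10 Ndufb11 and 8 Cox6a1. Cox6a1 held 174 to 245 CPM in retina IP, 80.4 to 104 CPM in batch 1 ONP and 401 CPM in ONP replicate 7, so that the batch 1 libraries lay below the retina and the batch 2 library above it.

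The median log2 fold changes of the neighbouring pathways of central carbon metabolism lay above 0 with and without the batch term. Glycolytic genes had 16 of 20 rows called higher in retina than in ONH and 2 lower, and 15 higher and 2 lower than in ONP, with median log2 fold changes of 1.37 and 1.73. These were 1.33 and 1.81 without a batch term and 1.04 and 2.38 within batch 2. Aldoc, an aldolase used as an astrocyte marker, was higher by 3.45 and 3.39, and Eno2, an enolase typical of neurons, by 3.58 and 4.22. Hk2, a hexokinase, was lower, with log2 fold changes of -4.48 and -3.80, as was Slc16a1, a lactate carrier, with -2.66 and -2.75. All 8 of these values passed the threshold. Ganglion cell markers summed to 959 to 5753 CPM in retina IP and to at most 303 CPM in the nerve libraries, and their part in these values was not tested. Tricarboxylic acid cycle genes had 7 of 17 called higher in each comparison and 0 lower, with medians of 0.61 in both, 0.58 and 0.52 without a batch term and 0.53 and 1.13 within batch 2. Pdha1, the pyruvate dehydrogenase alpha subunit, was higher by 1.83 and 1.67, Ogdh, of the oxoglutarate dehydrogenase complex, by 1.36 and 1.17, and Cs, citrate synthase, by 0.81 and 0.67, all called.

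Among assembly factors 5 of 43 rose above and 7 fell below the ONH level in retina, and 7 and 3 did so against ONP. These counts, and those of the biogenesis, import and carrier lists below, stand beside 12.7% higher and 21.1% lower of all genes against ONH and 12.9% and 19.9% against ONP, and nothing particular to the lists is read from them. Coa5, a complex IV assembly factor, was higher by 1.17 and 0.91, and Pet100, another, was lower, at -1.61 and -1.19. Of 16 genes for mitochondrial biogenesis, 1 was called higher and 1 lower against ONH, and 2 and 2 against ONP. Tfam, which packages and transcribes mitochondrial DNA, was higher by 0.51 and 0.56, and Polg2, the accessory subunit of the mitochondrial polymerase, was lower, at -2.79 and -2.58. The mitochondrially encoded subunits had 12 of 12 estimates above 0 in both comparisons and none called, and their summed level ranged from 1364 to 19775 CPM within retina IP alone. Of 14 electron carriers and related subunits outside the prefixes, 2 were called higher and 0 lower in each comparison. Of 19 genes for protein import, 1 was higher and 4 lower against ONH, and 2 and 0 against ONP. Of 15 cytosolic ribosomal proteins, 0 were higher and 6 lower against ONH, and none was called against ONP.

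The last comparison set the nerve head against the nerve proper. EdgeR with the batch term called 13 of 81 members higher in ONH (against 4.43% of all genes) and 0 lower (against 3.04%), with a median log2 fold change of 0.35 against 0.02 over all genes; 75 of 81 estimates were above 0. At an unadjusted p under 0.05, 45 were higher and 0 lower, against 2053 higher and 1750 lower of 16355 genes. Within batch 1, where 6 libraries stand against 6, it called 36 of 81 higher (44.4%, against 8.57%) and 0 lower, with a median of 0.43. DESeq2 called 24 of 84 higher (28.6%, against 3.72% of all 31335 rows with a count) and none lower. That share includes rows of low count, so it is not comparable with the edgeR shares. Limma-voom called 6 higher (673 of 16355 over all genes) and a fit without a batch term 1 (554 of 16355). A fit of all 26 libraries called 3 (385 of 17173), and edgeR with no filter on low counts 5 (515 of 31335). Leaving out a single library gave 2 to 24 called higher. The number was 2 without ONH replicate 1, ONH replicate 3 or ONP replicate 4, beside 409 of 16302, 421 of 16228 and 457 of 16345 genes. In those fits the share of members called lay near that of all genes. The number was 3 without ONP replicate 6 (507 of 16342 genes) and 4 without ONP replicate 2 (479 of 16336). It was 5 without ONH replicate 5 (586 of 16322) or ONP replicate 1 (584 of 16243). It was 8 without ONP replicate 5 (748 of 16248). It was 22 without ONH replicate 4 (815 of 16233 genes) or 7 (641 of 16145), and 24 without ONP replicate 7 (660 of 16264). No such fit, nor any other alternative run, called a member lower in ONH.

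The called members were 8 of complex I, 2 each of complexes III and IV and 1 of complex V, all with a coding sequence under 600 bases. Ndufa1, a small membrane subunit of complex I, held 56.4, 32.7, 55.7, 28.1, 45.8, 40.7 and, in replicate 7, 158 CPM in ONH and 17.1, 18.4, 26.8, 23.6, 24.3, 22.2 and, in replicate 7, 149 CPM in ONP. Within batch 1 every ONH library was above every ONP library. The log2 fold change was 0.78 (SE 0.17, adjusted p = 0.011, edgeR). Uqcrq, a small complex III subunit, was higher by 0.64 (SE 0.15, adjusted p = 0.016, edgeR), with 73.3 to 145 CPM in batch 1 ONH and 50.8 to 68.1 CPM in batch 1 ONP. Ndufb4 was higher by 0.65 and Uqcr11 by 0.60, with adjusted p-values of 0.036 and 0.048 by edgeR. In the batch 1 fit 35 of 60 members under 600 bases were called higher, with a median of 0.52, and 1 of 21 longer members, with a median of 0.06. Over all 13547 protein-coding genes in that fit the medians were 0.30 under 600 bases and -0.08 above. Oligodendrocyte markers summed to 28283 to 71951 CPM in batch 1 ONH and 36103 to 118383 CPM in batch 1 ONP, and oligodendrocyte precursor markers to 768 to 1565 CPM and 1555 to 2931 CPM. Fibroblast markers summed to 473 to 1068 CPM in batch 1 ONH and 149 to 1051 CPM in batch 1 ONP, pigment cell markers to 42.9 to 590 CPM and 4.07 to 18.9 CPM, and rod markers to 107 to 963 CPM and 28.6 to 117 CPM. Their part in these values was not tested. Of the neighbouring lists, 5 of 43 assembly factors and 2 of 20 glycolytic rows were called higher in ONH, and no gene of the tricarboxylic acid cycle, biogenesis, import, carrier, mitochondrially encoded or ribosomal lists was called. The ribosomal proteins had 15 of 15 estimates above 0, with a median of 0.16, and the import genes 16 of 19, with a median of 0.28.

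The 10 subunits chosen to represent the complexes were Ndufs1, Ndufv1, Sdha, Sdhb, Uqcrc1, Uqcrfs1, Cox4i1, Cox5a, Atp5a1 and Atp5b. None was called between the nerve head and the nerve proper with the batch term, and their differences were not alike. Atp5a1 had means of 694 ± 74.7 CPM in ONH and 672 ± 109 CPM in ONP (SD, n = 7 each). Sdha had means of 587 and 609 CPM and Uqcrc1 of 630 and 572 CPM. Sdhb was at 250.5 to 417 CPM in batch 1 ONH and 205 to 281 CPM in batch 1 ONP, with a log2 fold change of 0.35 (SE 0.14, adjusted p = 0.14, edgeR). Cox4i1, whose coding sequence is short, held 457 to 787 CPM in ONH and 341 to 406 CPM in batch 1 ONP, with 812 CPM in ONP replicate 7. Within batch 1 its ONH libraries all lay above its ONP libraries, and with the batch term its adjusted p was 0.052 by edgeR.

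The paired forms of complex IV subunits are given by their share within each set on CPM per kilobase of the longest annotated transcript. Cox4i2 made up 8.68% ± 4.78 of the Cox4 pair in retina IP (SD, n = 6), 3.08% ± 1.37 in input (n = 6), 1.68% ± 0.56 in ONH (n = 7) and 1.00% ± 0.55 in ONP (n = 7). Cox4i1 was the main form in every library, with at least 83.6%. The highest Cox4i2 levels were in retina IP replicates 2, 3 and 4, at 61.7 to 107 CPM. In the same 3 libraries the astrocyte marker list summed to 25927 to 40201 CPM, against 7793 to 10523 CPM in the other 3, Muller glia markers to 38423 to 40026 CPM against 10454 to 17838 CPM, and the mitochondrially encoded subunits to 8836 to 19775 CPM against 1364 to 3503 CPM. Ganglion cell markers ran the other way, at 959 to 2380 CPM against 5144 to 5753 CPM. The Muller glia list also summed to 20023 to 51435 CPM in ONH and 26160 to 53390 CPM in ONP. High sums of that list were thus not particular to the retina. The 11 pericyte and smooth muscle markers summed to 809 to 976 CPM against 151 to 168 CPM, most of it from Rgs5, at 755 to 943 CPM against 119 to 130.1 CPM. Over all retina IP libraries Vtn stood at 18.2 to 67.0 CPM, Pdgfrb at 1.12 to 8.84 CPM, Kcnj8 at 0 to 0.92 CPM and Notch3 at 0 to 0.58 CPM. In the nerve IP libraries the 11 markers summed to 267 to 1481 CPM, with Rgs5 at 6.45 to 92.6 CPM, Kcnj8 at 18.2 to 49.8 CPM and Vtn at 166 to 1317 CPM. The part of any of these cell types in the Cox4i2 values was not tested.

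In ONH against ONP, Cox4i2 was called higher in ONH, by 1.38 (SE 0.36, adjusted p = 0.024, edgeR). In batch 1 the smooth muscle markers Acta2 and Cnn1 stood at 26.9 to 102 CPM and 10.7 to 61.0 CPM in ONH. In batch 1 ONP they stood at 8.08 to 42.8 CPM and 0.135 to 4.09 CPM. The pericyte and smooth muscle list as a whole showed no common direction. It summed to 356 to 453 CPM in batch 1 ONH and 308 to 681 CPM in batch 1 ONP. Of its 10 genes tested, 5 estimates were higher in ONH and 5 lower, with 1 called higher and a median of 0.04. The part of these markers in the Cox4i2 value was not tested. Ndufa4l2, a relative of Ndufa4 induced in low oxygen, was higher by 2.14 (SE 0.57, adjusted p = 0.029, edgeR) at low levels, with 1.01 to 5.85 CPM in ONH and 0.0729 to 1.92 CPM in ONP. In retina IP it held 1.28, 6.11, 6.29, 10.96, 1.54 and 3.06 CPM, again highest in replicates 2, 3 and 4. Ndufa4 itself, which carries a complex I name but is now counted as a complex IV subunit, held 162 to 366 CPM in retina IP, 43.4 to 84.98 CPM in batch 1 ONH and 35.9 to 49.3 CPM in batch 1 ONP. Cox7a1, the heart and muscle form of subunit 7a, was higher in ONH than in ONP by 1.39 (SE 0.40, adjusted p = 0.039, edgeR), with 0.988 to 3.07 CPM and 0.235 to 0.825 CPM in batch 1. Cox7a1 reached 66.4 and 58.9 CPM in inputs 1 and 2, where skeletal muscle markers summed to 369 to 504 CPM, against 144 to 192 CPM in inputs 3 to 6. That list holds 8 genes, Pvalb among them, and 3 of them passed the filter on low counts in retina IP against input. Which genes carried the sum was not examined, so it cannot show that muscle was present. The log2 ratio of inputs 1 and 2 to inputs 3 to 6 was 2.61 for Cox7a1 and 2.49 for Cox7c, a widespread short subunit.

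Among other restricted forms, Cox8b, Cox6a2 and Cox7b2 were low in most libraries. Cox6b2 was low in the batch 1 nerve libraries, at 0.898 to 5.34 CPM in ONH and 1.32 to 2.47 CPM in ONP, and higher in retina. Cox8b, the muscle form of subunit 8, held 20.4 CPM in ONH replicate 7, 0 to 0.975 CPM in the other ONH libraries, 0 to 0.185 CPM in retina IP and 0 to 0.356 CPM in ONP. Cox6a2, the muscle form of subunit 6a, did not exceed 7.52 CPM in any library, and Cox7b2 did not exceed 4.21 CPM. Cox6b2, described in testis, held 8.95 to 21.0 CPM in retina IP, 11.6 to 56.7 CPM in input, 1.32 to 12.03 CPM in ONP and 0.898 to 7.93 CPM in ONH. Retina IP and ONH did not overlap, but its log2 fold change with the batch term was 0.01 (SE 0.61, adjusted p = 0.99, edgeR).

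**Figure D5:**
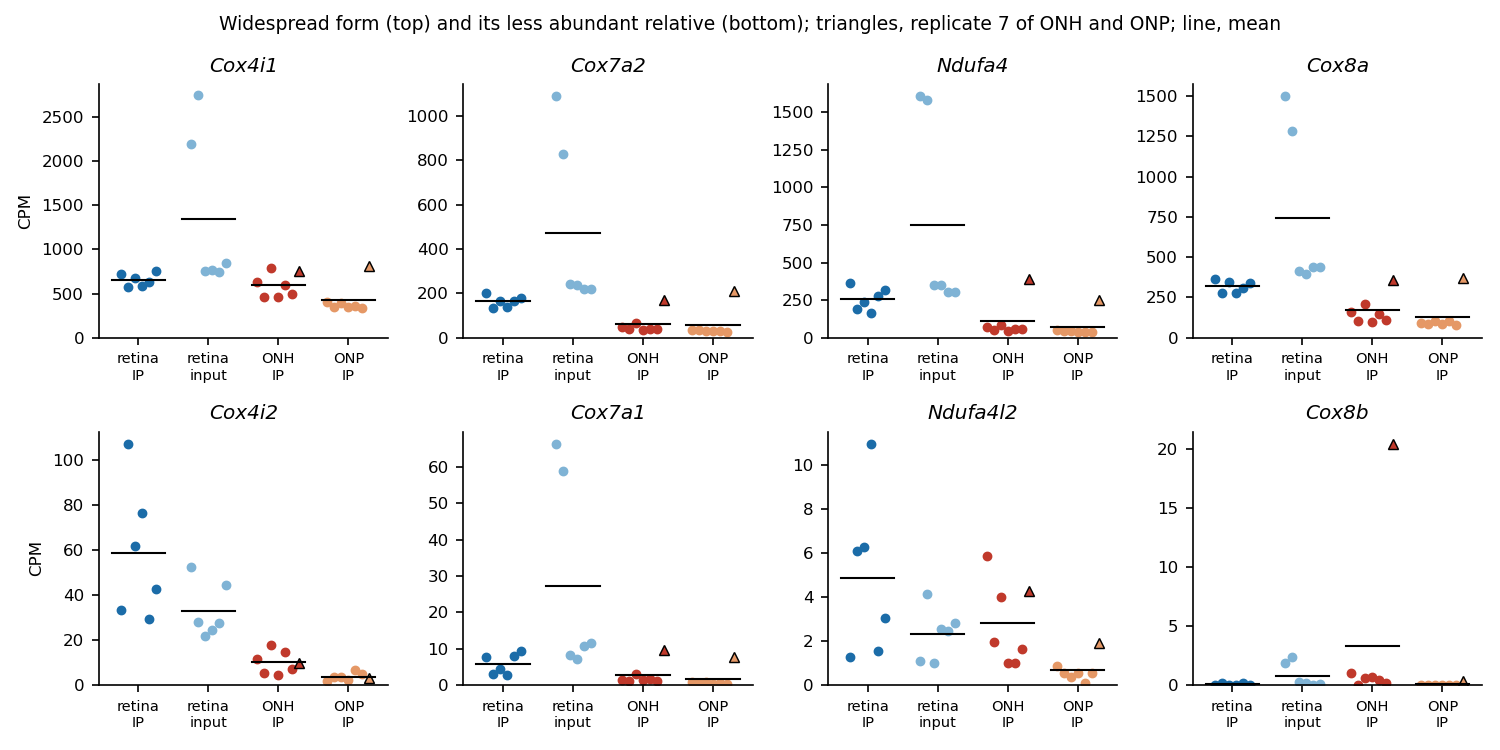
Level in every library (CPM, vertical axes, each from 0) of 4 widespread members (top) and their less abundant relatives (bottom) by group, with triangles for replicate 7 of ONH and ONP and lines for means. Cox4i2 lies at 29.5 to 107 CPM in retina IP and at most 17.8 CPM in ONH, and Cox8b at 20.4 CPM in a single ONH library.

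The c subunit of the ATP synthase, which forms the rotor ring, is encoded by 3 genes whose mature proteins are identical. Per kilobase of the longest transcript, Atp5g3 made up 75.7% ± 3.19 of the set in retina IP, 68.4% ± 3.61 in ONH and 63.5% ± 4.03 in ONP (SD, n = 6, 7 and 7). Atp5g2 made up 16.01% ± 3.48, 23.4% ± 3.17 and 28.3% ± 3.96, and Atp5g1 8.34%, 8.19% and 8.29% in the same order. The order of Atp5g1 and Atp5g2 depended on the length used: per kilobase of coding sequence Atp5g1 made up 34.6% ± 1.63 in retina IP and Atp5g2 9.93% ± 2.30.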

How the data were processed

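RNA captured on oligo-dT beads was made into libraries with an ultra-low-input Smart-Seq kit, per the labels' protocols, and Salmon 1.6.0 and the mm10 build are named in the submitters' processing notes. The authors deposited estimated counts per gene as whole numbers, with Salmon the tool their notes name and its role not given; every column matched a sample by its label. Symbols, chromosomes and lengths came from GENCODE M21. The members and gene lists were chosen with earlier results of these data known. Levels per library are CPM, counts scaled to the same total in every library. Tests used edgeR 4.0.16 (quasi-likelihood F test with TMM scaling, low counts removed by filterByExpr at min.count 10 and min.total.count 15, Benjamini-Hochberg over all genes tested, threshold 0.05) in R 4.3.3. Retina IP and input were fitted as 12 libraries, and the 3 IP comparisons as 20 IP libraries with a batch term. The division at a coding length of 600 bases, the medians of pathway lists under other batch treatments and the fit without both replicate 7 libraries were chosen after seeing the data. Alternatives used limma 3.58.1 (voom), DESeq2 1.42.0, RLE size factors, no filter, other sets of libraries and each library left out. Scripts were tested on simulated counts. Members named per comparison were up to 5 called in each direction by fold change, with a mean of at least 10 CPM. With none called, they were the 5 with the smallest p. Also named were the paired forms, 10 subunits chosen to represent the complexes and the highest and lowest of each complex. Totals of 11164619 to 27431026 set the counting precision, and intervals were not computed. Protein sequences were not used here.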

Additional observations from a re-analysis of the deposited data

Results flagged for a closer look

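In groups of 6 or 7 libraries, the gap of the highest or lowest library to its neighbour was compared with the group's range by Dixon's criterion (critical values 0.625 and 0.568). Of 88 groups of values examined (the shares of the complexes and 16 members), 26 had a library apart; chance flags about 1 in 20. ONP replicate 7 was the library apart in 14 of these, ONH replicate 7 in 11 and ONH replicate 4 in 1. No retinal library was, but the criterion takes the gap to the nearest library and so cannot mark retina inputs 1 and 2, which lie together above the other inputs. The flags are not independent, since the values share libraries.

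ONP replicate 7 was high in the share of all members (1.71%, next 1.04%), of complex I (0.667%, next 0.326%), complex III (0.187%, next 0.126%) and complex IV (0.326%, next 0.0970%). ONH replicate 7 was high in complex I (0.699%, next 0.458%) and complex III (0.209%, next 0.147%). ONH replicate 4 was low in complex II (0.105%, next 0.123%).

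Among single members, ONP replicate 7 was high for Cox4i1 (812 CPM, next 406), Ndufa4 (253, next 49.3), Cox7a1 (7.69, next 0.825), Cox7a2 (209, next 34.2), Cox8b (0.356, next 0.0365), Cox6a1 (401, next 104), Ndufb2 (16.9, next 8.21), Ndufs5 (182, next 43.6), Ndufa1 (149, next 26.8) and Cox6c (324, next 52.6). ONH replicate 7 was high for Ndufa4 (394 CPM, next 84.98), Cox7a1 (9.77, next 3.07), Cox7a2 (169, next 68.3), Cox8b (20.4, next 0.975), Atp5b (1576, next 1151), Ndufb2 (25.3, next 12.9), Ndufs5 (158, next 73.5), Ndufa1 (158, next 56.4) and Cox6c (265, next 96.7). Of these 10 and 9 members, Atp5b alone has a coding sequence of 600 bases or more. Both libraries belong to batch 2, while the other libraries of their groups belong to batch 1.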

How the results depend on the processing

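In retina IP against input, DESeq2 called 47 members lower and a fit of all 26 libraries 61, against 0 in the fit reported and under each other alternative, the fit with a replicate block among them (0 higher, 0 lower). Against ONH, the members called higher and lower numbered 2 and 1 with all 26 libraries, beside 1242 and 2354 of 17173 genes. They numbered 32 and 1 without a batch term (3871 and 4594 of 16355) and 0 and 0 with only the groups compared (437 and 1632 of 15754). Leaving out a library gave 1 to 6 and 2 to 30. Both lowest values came without ONP replicate 7, and the highest number lower without ONH replicate 7. Against ONP the members called higher and lower numbered 5 and 3 with RLE, beside 2300 and 3070 of 16355 genes. They numbered 6 and 2 with DESeq2 (2886 and 3390 of 31335 rows) and 1 and 0 with all 26 libraries (1417 and 2317 of 17173). They numbered 54 and 0 without a batch term (4225 and 4626 of 16355) and 5 and 11 with only the groups compared (1802 and 2339 of 15485). With no filter 1 was lower (3177 of 31335), and leaving out a library gave 1 to 6 higher and 0 to 11 lower. In ONH against ONP, 5 were higher with no filter, 24 with DESeq2, 6 with limma-voom, 3 with all 26 libraries and 1 without a batch term. The number was 36 in batch 1 and 27 with a replicate block (1481 of 14799 over all genes). It was 22 without both replicate 7 libraries (640 of 16051), an alternative chosen after seeing the data. Leaving out a library gave 2 to 24. Same-numbered libraries correlated at -0.098 to 0.23 (retina IP and input, 5 of 6 best with their own number) and 0.062 to 0.41 (batch 1 ONH and ONP, 6 of 6), a hint of pairing from the data, not the design. No paired analysis was possible for retina against nerve because the block cannot be fitted with batch. Without a batch term these log2 fold changes turned sign: against ONH, Ndufs5 0.29, Ndufa2 0.50, Ndufa7 0.49, Atp5e 0.98 and Cox6a1 0.19; against ONP, Ndufa3 1.06, Cox6a1 0.46, Ndufa7 0.78 and Ndufb11 0.56. The cause was not tested. DESeq2 moved the median of all genes in IP against input from 0.02 to -0.13. The mean share of counts of all members in each of the 4 groups moved by less than 1 SD on TMM library sizes, on totals without mitochondrially encoded genes and with each library left out.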
